A study of Homo sapiens with 6 samples.

Results

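The mitochondrial ribosomal protein genes are the nuclear genes for the proteins of the ribosome inside mitochondria. Members were taken as the protein-coding genes of the deposited count table whose symbol is MRPL or MRPS with a number and, where present, a letter. This gave 78 of the 30270 genes in the table, 49 with a large-subunit symbol (MRPL) and 29 with a small-subunit symbol (MRPS). HEK 293T is an immortalised line from human embryonic kidney that carries the SV40 large T antigen, as do both groups here. The study asked how its transcriptome differs when TUT4 and TUT7, which add uridines to RNA 3′ ends and are also called TENT3A and TENT3B, are both knocked out. The 3 libraries of wild type cells (WT) carry no alteration in the labels, and the 3 libraries labelled ΔTUT4/7 carry the TENT3A/B knockout. Both groups were grown in the same medium with no treatment named, and total RNA was depleted of ribosomal RNA before sequencing. The knockout is a single strain made earlier by another laboratory, and the number of clones is not given in the sources used here, so a p-value measures the spread between cultures of 1 line and not between independent knockouts. The study obtained HEK 293T cells from a culture collection, whereas the knockout cells were a gift from that laboratory. It does not state that the WT cells are the parent of the knockout. The knockout and any difference between stocks of the line therefore cannot be told apart.

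The mitochondrial ribosome makes the few proteins that mitochondrial DNA encodes, all of them parts of the respiratory chain and ATP synthase. Its 2 subunits each hold a ribosomal RNA from the mitochondrial genome, 12S in the small subunit and 16S in the large, while every protein is imported from the cytosol. Some of its proteins have counterparts in the bacterial ribosome and others were gained in mitochondria. The small subunit binds the mRNA and reads its codons, and the large subunit joins the amino acids.

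Library totals ran from 18757228 to 33148937 counts, and the biological coefficient of variation was 6.44%. The targeted genes checked the labels in part. TUT7 read 60.4, 62.6 and 64.8 CPM (counts scaled to library size with TMM factors) in WT and 27.2, 25.2 and 26.5 in the libraries labelled ΔTUT4/7. TUT4 read 212.0, 216.2 and 206.1 CPM in WT and 881.7, 920.4 and 916.9 in those libraries, which is the direction opposite to the knockout label. Gene counts cannot say whether this RNA is intact. Of the markers of the line, VIM read 496 and 1250 CPM in the 2 groups and KRT18 30.5 and 44.3, whereas of the markers of other cell types ALB and PECAM1 did not exceed 0.228 CPM in any library, GFAP was low (2.24 and 0.844 CPM), and PTPRC, CD3E, CDH5 and COL1A2 had no row in the table. All 6 markers of the line were tested, and 3 rose and 3 fell. CDH2 (26.5 and 60.2 CPM) rose with VIM and KRT18, whereas KRT8 (9.96 and 3.43), LHX1 (3.91 and 1.96) and PAX2 (2.15 and 1.45) fell. PAX2 was as low in WT as GFAP, so these markers identify the line only in part. In RNA from a culture, fewer cells with a transcript and less of it per cell cannot be told apart.

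Most members were higher in the libraries labelled ΔTUT4/7. All 78 passed the count filter, and 62 rose, 3 fell and 13 were not called at an FDR (the p-value adjusted over all 23952 genes tested) under 0.05 in edgeR's quasi-likelihood test. Of all genes tested, 28.6% were called higher and 29.0% lower, and of the protein-coding ones 37.9% and 31.8%. The median log2 fold change was 0.47 over the members, with a range of −0.54 to 1.57, against −0.02 over all genes and 0.05 over protein-coding genes. Since the members are well expressed, the 9481 protein-coding genes within their range of mean counts are a closer background, and there 46.4% were called higher and 30.2% lower with a median of 0.11. At 2-fold or more 6 members rose and 0 fell, while 5.90% of all genes rose and 12.4% fell by that much, and 6.26% and 10.6% of the protein-coding ones. In the closer background of 9481 genes, 463 rose and 437 fell by that much, so falls of this size were less common there.

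**Figure D1:**
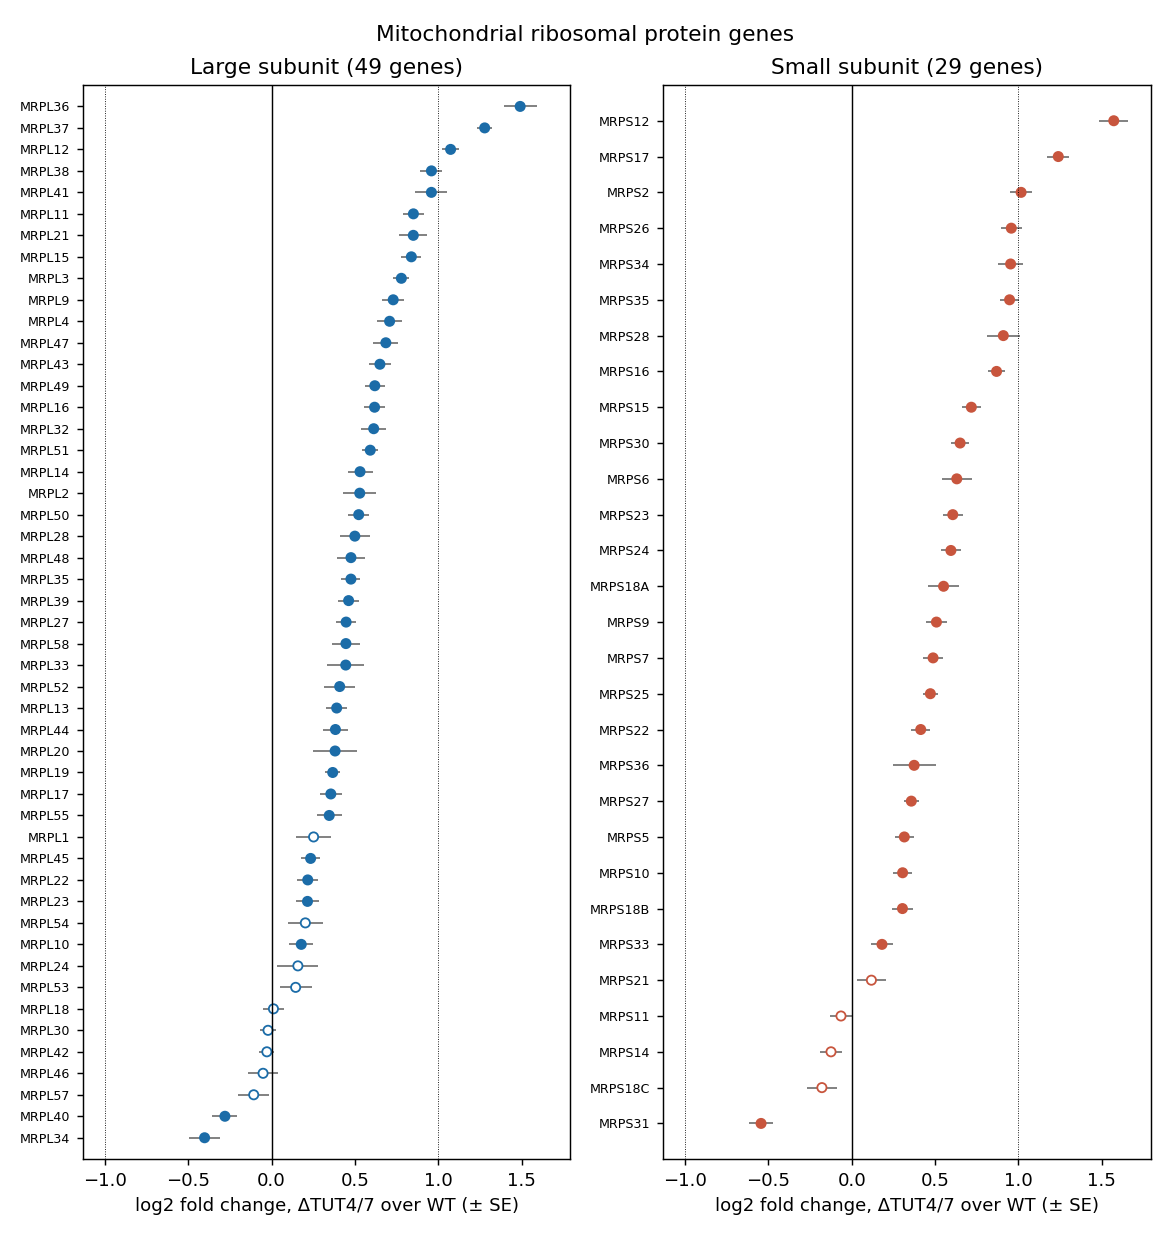
Log2 fold change of each member in the libraries labelled ΔTUT4/7 over WT, by subunit and ordered by size, with bars of 1 standard error. Filled points passed an FDR of 0.05 and open points did not, and the dotted lines mark 2-fold. Of the members 62 lie right of 0 as filled points and 3 lie left of it as filled points. With open points included, 68 of the 78 lie right of 0.

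Both subunits had a median above 0. Of the large-subunit genes 38 rose and 2 fell, with a median of 0.45 and quartiles of 0.22 and 0.65. Of the small-subunit genes 24 rose and 1 fell, with a median of 0.51 and quartiles of 0.31 and 0.87. The libraries of the 2 groups did not overlap for 62 members that were higher and 3 that were lower, against 30.9% and 31.8% of all genes tested. The 62 include MRPL1, which was not called, and leave out MRPS36, which was. The counts of falling genes depended on the scaling: with library size alone 33 large-subunit genes rose and 5 fell, and 22 small-subunit genes rose and 4 fell. That scaling moved the median of all genes by −0.11. Measured from the median of all genes, the large-subunit median was 0.47 under both scalings and the small-subunit median 0.53. The single falling small-subunit gene became 2 without WT replicate 1, 2 without WT replicate 2 and 3 without ΔTUT4/7 replicate 2.

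**Figure D2:**
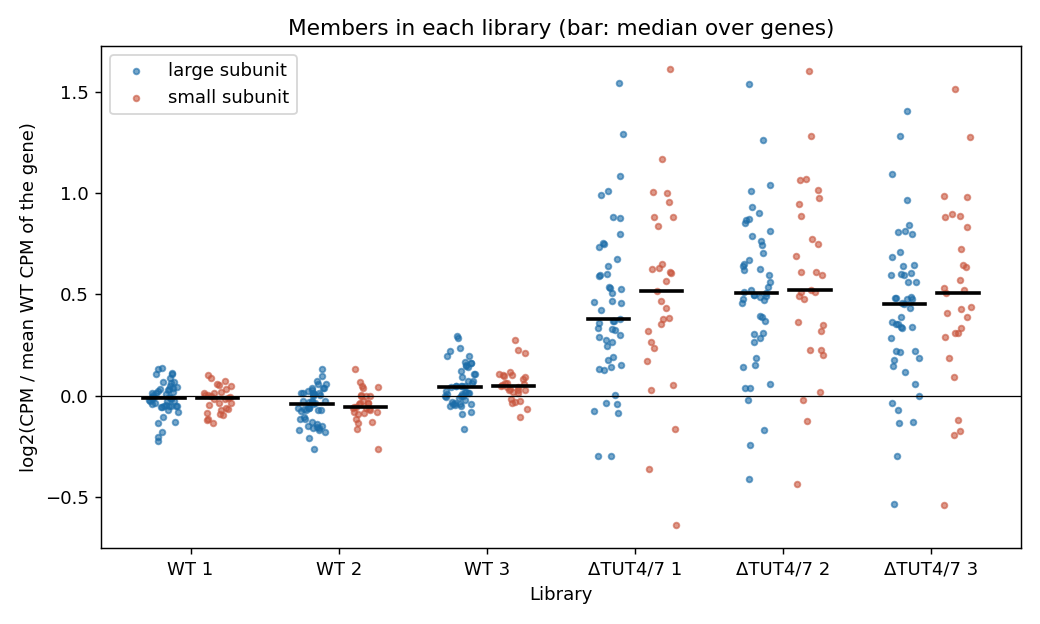
Each point is 1 member in 1 library, as the log2 of its CPM over the gene's mean CPM in WT, for the large (blue) and small (red) subunit, and black bars are medians. The medians lie between −0.06 and 0.05 in the WT libraries and between 0.38 and 0.52 in those labelled ΔTUT4/7.

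MRPS12 and MRPL36 rose the most. MRPS12, the protein at the decoding centre of the small subunit (chr19:38930944-38933168, + strand, hg38), read 8.91, 9.23 and 10.2 CPM in WT and 29.0, 28.8 and 27.0 in the libraries labelled ΔTUT4/7. All 3 of the latter lay above all WT values, and the log2 fold change was 1.57 ± 0.09 (SE, n = 3 per group; edgeR FDR = 1.69e-12). MRPL36, a small protein of the large subunit with a bacterial counterpart (chr5:1798385-1801366, − strand), read 10.2, 9.15 and 12.3 CPM in WT and 30.9, 30.7 and 28.0 in the other group. Its log2 fold change was 1.49 ± 0.10 (edgeR FDR = 3.38e-11).

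The other 4 members past 2-fold came from both kinds of protein. MRPL37 (chr1:54184041-54225464, + strand), which has no bacterial counterpart, read 106.4, 97.3 and 100.7 CPM in WT and 248.0, 243.3 and 246.5 in the libraries labelled ΔTUT4/7. Its 3 values in each group were close together, and its log2 fold change was 1.28 ± 0.05 (edgeR FDR = 1.71e-15). MRPS17, an RNA-binding protein of the small subunit with a bacterial counterpart (chr7:55951877-55956500, + strand), read 21.0, 20.3 and 21.9 CPM in WT and 47.3, 51.3 and 51.1 in the other group, a log2 fold change of 1.24 ± 0.07. Its counts share a strand and a stretch of genome with NIPSNAP2, and estimated counts divide such reads by a model. MRPL12, which forms the stalk that recruits translation factors (chr17:81703367-81707517, + strand), read 48.2, 45.6 and 50.1 CPM in WT and 101.7, 98.7 and 102.5 in the other group, a log2 fold change of 1.07 ± 0.05. MRPS2 (chr9:135499984-135504673, + strand) read 24.5, 23.4 and 25.4 CPM in WT and 49.0, 51.0 and 48.4 in the other group, a log2 fold change of 1.02 ± 0.06. For each of these genes the lowest library labelled ΔTUT4/7 lay above the highest WT library.

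Just under 2-fold lay MRPL38 and MRPL41 (both 0.96), which are large-subunit proteins without bacterial counterparts, and MRPS26 (0.96) and MRPS34 (0.95), which are such proteins of the small subunit. MRPL41 rose from 9.59 ± 0.37 to 18.6 ± 1.2 CPM (SD, n = 3) and MRPS34 from 28.8 ± 2.7 to 55.7 ± 3.8 CPM.

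MRPS31, MRPL34 and MRPL40 fell. MRPS31, a small-subunit protein without a bacterial counterpart (chr13:40729128-40771190, − strand), read 34.9, 35.5 and 39.4 CPM in WT and 23.5, 27.1 and 25.2 in the libraries labelled ΔTUT4/7. Its log2 fold change was −0.54 ± 0.07 (edgeR FDR = 1.68e-06). The table also holds pseudogenes of this gene, MRPS31P5 with 63.9% of the parent's mean count and MRPS31P4 with a mean count of 99.3, which had log2 fold changes of −1.48 and −0.93, so the division of reads among the 3 is uncertain. MRPL34, a large-subunit protein with a bacterial counterpart (chr19:17292609-17306843, + strand), read 23.8, 19.5 and 21.9 CPM in WT and 17.6, 16.3 and 15.0 in the other group, a log2 fold change of −0.40 ± 0.09 (edgeR FDR = 7.88e-04). It overlaps ABHD8 on the other strand. MRPL40 (chr22:19431902-19436075, + strand) read 24.5, 23.4 and 23.9 CPM in WT and 19.4, 20.2 and 19.5 in the other group, a log2 fold change of −0.28 ± 0.08 (edgeR FDR = 0.00301). It overlaps HIRA and C22orf39 on the other strand. In all 3 genes the groups did not overlap, and the 3 calls held under each of the 16 alternative scalings, tests, filters and omissions of a library.

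The 13 uncalled members ranged from −0.18 for MRPS18C to 0.25 for MRPL1 in log2 fold change. MRPL42, whose CPM was the highest of any member, read 272.6, 290.1 and 285.2 in WT and 266.4, 290.1 and 275.4 in the other group, a log2 fold change of −0.03 ± 0.05. It was called lower with library size alone (−0.14) and upper-quartile scaling, and higher with an offset for GC content and length (0.21, edgeR FDR = 8.86e-05), so its direction depends on the processing. Its transcript model of 15557 bases puts it at rank 51 of the 78 members per kilobase. MRPS21 stood at 53.1 ± 7.2 and 58.0 ± 3.8 CPM (log2 fold change 0.12 ± 0.09), with 1 WT library at 61.4 CPM and the others at 49.0, and it was called higher without that library, WT replicate 3 (0.23).

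Grouped by the origin of the protein, the medians lay between 0.45 and 0.51. Among large-subunit genes with a bacterial counterpart 25 of 30 rose and 1 fell, with a median log2 fold change of 0.46, and among those specific to mitochondria 13 of 19 rose and 1 fell, with a median of 0.45. Among small-subunit genes with a bacterial counterpart 13 of 17 rose and 0 fell, with a median of 0.51, and among the 9 specific to mitochondria 8 rose and 1 fell, with a median of 0.47. These classes were not tested against each other.

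For 3 genes the symbol does not give the place of the protein. MRPS30 and MRPS18A are proteins of the large subunit in the assembled ribosome, and MRPS36 belongs to the alpha-ketoglutarate dehydrogenase complex. MRPS30 read 91.5, 103.0 and 87.4 CPM in WT and 144.7, 151.8 and 146.1 in the libraries labelled ΔTUT4/7, a log2 fold change of 0.65 ± 0.06. MRPS18A rose by 0.55 ± 0.09 on the log2 scale, and 1 processed pseudogene with 12.4% of its mean count rose by 1.65, so that its share of reads is uncertain. The 3 homologues of one bacterial protein differed: beside MRPS18A, MRPS18B rose by 0.30 ± 0.06, and MRPS18C stood at −0.18 ± 0.09 (edgeR FDR = 0.102). MRPS36 read 8.65, 7.54 and 10.9 CPM in WT and 10.6, 12.9 and 12.003 in the other group, a log2 fold change of 0.37 ± 0.13 (edgeR FDR = 0.0176). Its groups overlapped, and it lost its call under 6 of the 16 alternatives.

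Of 5 mitoribosomal proteins that carry other names, 3 rose (60.0%) and 0 fell. Their median log2 fold change was 0.20, beside 0.47 over the members. Among protein-coding genes in the members' range of counts 46.4% rose and 30.2% fell, with a median of 0.11. GADD45GIP1, a large-subunit protein also known as CRIF1, read 13.9, 11.5 and 12.4 CPM in WT and 30.5, 26.9 and 27.4 in the other group, a log2 fold change of 1.17 ± 0.09. The small-subunit proteins DAP3, a GTP-binding protein, and PTCD3 rose by 0.42 ± 0.05 and 0.20 ± 0.04, and PTCD3 lost its call with library size alone (0.09) and with upper-quartile scaling (0.10). CHCHD1 (0.13 ± 0.13) and AURKAIP1 (0.07 ± 0.07) were not called.

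Summed over its genes, the large subunit read 2007, 1995 and 2069 CPM in WT and 2782, 2922 and 2779 CPM in the libraries labelled ΔTUT4/7, a ratio of means of 1.40. The small subunit read 1207, 1198 and 1246 CPM in WT and 1720, 1796 and 1728 in the other group, a ratio of 1.44. All 3 libraries labelled ΔTUT4/7 lay above all WT libraries for both sums. The members together took 0.334% to 0.340% of the counts in WT and 0.434% to 0.448% in the other group. Transcripts of the mitochondrial chromosome went the other way, from 2.06% to 2.65% of the counts in WT to 1.67% to 1.74%, and long noncoding RNA took 6.10% to 6.34% in WT and 4.07% to 4.19% in the other group. The part of these shares in the members' values was not tested.

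The balance between the subunits depended on how proteins were assigned. By symbol, the large-to-small ratio of summed CPM was 1.66 to 1.67 in the WT libraries and 1.61 to 1.63 in those labelled ΔTUT4/7. Summed per kilobase of transcript it was 1.86 to 1.89 and 1.84 to 1.86, and the groups overlapped. With MRPS30 and MRPS18A counted as large-subunit proteins, MRPS36 left out and the 5 proteins of other names added, it was 1.57 to 1.60 in WT and 1.61 to 1.63 in the other group, the opposite direction. By that assignment 41 of 52 large-subunit genes rose and 2 fell (median log2 fold change 0.47), and 23 of 30 small-subunit genes rose and 1 fell (median 0.44). RNA sums over genes of different length are no measure of the number of subunits.

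The levels of single members per kilobase of transcript spanned 15.2-fold in WT, from 6.05 CPM per kb for MRPS23 to 91.9 for MRPL51. MRPL51 (91.9 ± 2.6, SD, n = 3), MRPL3 (80.6 ± 1.8), which lies near the peptidyl transferase centre, and MRPL37 (68.4 ± 3.1) were the highest large-subunit genes, and the gaps between them exceeded their spread. MRPS30 (57.0 ± 4.9), MRPS15 (49.6 ± 2.8) and MRPS21 (49.0 ± 6.6) led the small-subunit symbols, and the last pair did not differ beyond their spread. At the low end stood MRPL57 (6.97 ± 0.55), MRPL50 (10.7 ± 0.2) and MRPL35 (10.8 ± 0.4) in the large subunit, and MRPS23 (6.05 ± 0.15), MRPS36 (6.87 ± 1.31) and MRPS33 (7.99 ± 0.47) in the small. For MRPS23 and MRPS33 the transcript model is long, at 5609 and 4210 bases, and 6 members have models over 4 kb, so their levels per length rest on the model chosen. In the libraries labelled ΔTUT4/7, MRPL37 moved from rank 3 to rank 1 of the 78 (166 CPM per kb), and MRPS12 from rank 74 to rank 43.

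**Figure D3:**
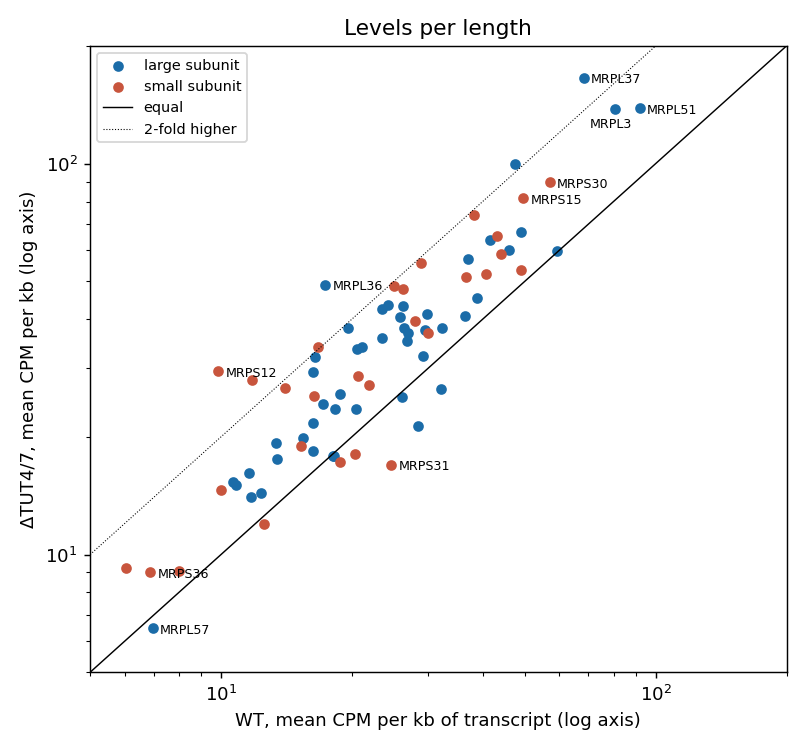
Mean level per kilobase of transcript in WT (horizontal) and in the libraries labelled ΔTUT4/7 (vertical) for each member, both on log axes, with the large subunit in blue and the small in red. Most points lie between the solid line of equal levels and the dotted line of 2-fold higher levels. The 6 members past 2-fold (MRPS12, MRPL36, MRPL37, MRPS17, MRPL12 and MRPS2) lie above the latter. The called falls MRPS31, MRPL34 and MRPL40 lie below the former, as do some uncalled members such as MRPS18C.

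Of 27 assembly and rRNA maturation factors 19 rose and 4 fell (70.4% and 14.8%), with a median log2 fold change of 0.41, beside 46.4% and 30.2% and a median of 0.11 for protein-coding genes in the members' range of counts. GTPBP6, a GTPase that acts late in large-subunit assembly, rose by 1.67 ± 0.08, and DHX30, an RNA helicase of mitochondrial RNA granules, by 0.94 ± 0.04. GTPBP6 lies in the pseudoautosomal region, where its reads may match a near-identical copy. ERAL1, which binds 12S rRNA, rose by 0.94, and the 16S rRNA methyltransferases MRM1 and MRM3 by 1.38 and 0.95. NGRN (−0.53), NOA1 (−0.45), TFB1M (−0.40), which dimethylates 12S rRNA, and METTL15 (−0.17) fell. These 7 genes other than GTPBP6 and DHX30 were named after their values were seen.

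Of 17 translation factors tested 8 rose and 4 fell (47.1% and 23.5%), with a median log2 fold change of 0.14, which is near the background of 46.4%, 30.2% and 0.11. The elongation factors TSFM and GFM1 rose by 1.09 ± 0.07 and 0.63 ± 0.05, and TUFM, their partner that brings the aminoacyl-tRNA, by 0.73. The release factors MTRF1 and MTRF1L fell by 1.02 and 0.49 on the log2 scale. Of 10 regulators of mitochondrial gene expression 8 rose and 0 fell, with a median of 0.41. Among them PPRC1, a coactivator of mitochondrial biogenesis, rose from 72.5 ± 2.6 to 172 ± 5 CPM and the transcription factor MYC from 57.9 ± 4.5 to 108 ± 2 CPM. TFAM, which packages mitochondrial DNA, rose by 0.62, NRF1 by 0.35 and YY1 by 0.33, whereas GABPA (0.05) and PPARGC1A (−0.11) were not called. Of these, TUFM, MTRF1, MTRF1L, TFAM, NRF1, YY1, GABPA and PPARGC1A were named after their values were seen.

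Of 83 protein-coding genes with the symbol of a cytosolic ribosomal protein 38 rose and 16 fell, with a median log2 fold change of 0.16. Chosen by symbol alone, this set includes paralogs such as RPL22L1 (3.53) and leaves out genes with other names. Its share of 45.8% higher is near the 46.4% of protein-coding genes in the members' range of counts, and its 19.3% lower compares with 30.2%. That background is not matched to these genes, whose median mean count of 7241 lies above the highest member's (6867, MRPL42). Among its large-subunit symbols 24 of 51 genes were higher and 9 lower (median 0.17), and among its small-subunit symbols 14 of 32 were higher and 7 lower (median 0.07). The 2 ribosomes were not tested against each other, since genes are not replicates.

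The members' values varied with their place in the genome. Each member was set beside its neighbours, the 17 to 210 genes that lie up to 5 Mb away and have an average of at least 50 counts, by their median log2 fold change. These medians ran from −0.74 to 0.90, and across the 78 members Pearson's r between a member and its neighbours was 0.59, a description of genes that come from the same 6 libraries. Against this local background 71 of the 78 members were higher than their neighbours, with a median difference of 0.42 on the log2 scale, 0.43 in the large subunit and 0.42 in the small. The members' median of 0.47 already lay above the upper quartile of all genes tested (0.41), so most would exceed other sets of genes too. Members at 1 locus share most of their neighbours.

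Few members whose neighbours had the lowest medians were called. The neighbours' median was under −0.3, a limit set after the values were seen, for 7 members: MRPL1, MRPL18, MRPL46, MRPL57, MRPS11, MRPS18C and MRPS31. Of these 0 rose, 1 fell and 6 were not called, although all 7 lay above their neighbours, by 0.10 to 0.69. This count is close to the threshold: MRPL1 (0.25 ± 0.11, edgeR FDR = 0.0507) had groups that did not overlap and was called higher in 4 of the 16 alternatives, namely limma on log2(CPM + 1) and without WT replicate 3, ΔTUT4/7 replicate 1 or ΔTUT4/7 replicate 3. MRPS18C was called lower in 5, MRPL57 with library size alone, and MRPS11 with that and with upper-quartile scaling. Of the 13 members with neighbours between −0.3 and 0, 12 rose and 1 fell, and of the 11 with neighbours above 0.3, 10 rose. MRPL36 had the highest neighbours (0.90), which leaves 0.60 of its 1.49, whereas MRPS12 stood 1.35 above neighbours at 0.22. MRPS31, at −0.54, lay 0.10 above neighbours at −0.64, and MRPS33, which rose by 0.18, lay 0.27 below neighbours at 0.45 (a difference of −0.27). On chromosomes 17 and 11 all members rose, 8 and 7 of them, where 62 of all 78 rose. All members also rose on chromosomes 5 (5 members), 3 and 7 (4 each), and 8 and 9 (3 each). The same held on chromosomes 10, 16 and 21 (2 each) and 14 and 20 (1 each). On chromosomes 4, 13 and 15 (2 each) and 22 (1) 0 rose. Of the falling factors, NGRN, NOA1, TFB1M and MTRF1 lay among neighbours at −0.63, −0.49, −0.52 and −0.63. MTRF1L, GUF1, METTL15 and GFM2, which also fell, lay among neighbours at −0.54, −0.38, −0.24 and −0.03.

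**Figure D4:**
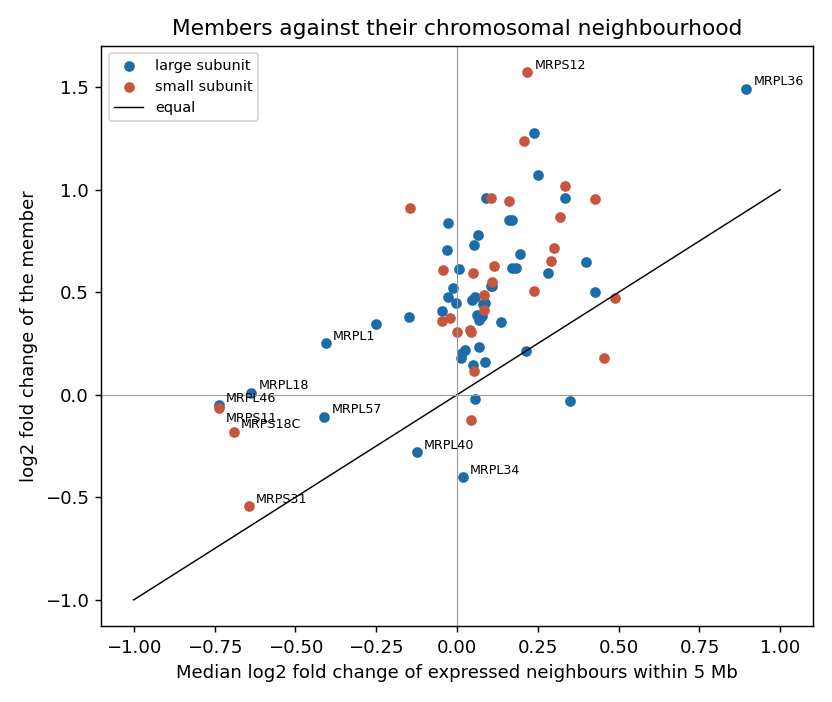
Log2 fold change of each member (vertical) against the median of its expressed neighbours within 5 Mb (horizontal), with the large subunit in blue, the small in red and a line where both are equal. The points rise from left to right and 71 of 78 lie above the line.

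Many members have a 5′ end close to that of a gene on the opposite strand. A head-to-head partner, with 5′ ends at most 1000 bases apart in the count table, was found for 31 members. Of these 24 rose, 0 fell and 7 were not called (median log2 fold change 0.53), against 38, 3 and 6 of the 47 without one (median 0.45). The RefSeq starts of MRPL11 and MRPL36, used below, lie 27890 and 1529 bases from the ends used here. Those pairs need not share a promoter region. Of the 26 tested protein-coding partners that are not members 9 rose, 6 fell and 11 were not called, with a median of −0.02. The member was higher in fold change than its partner in 22 of 26 pairs, with a median difference of 0.56. The median of all members (0.47) already lay above the upper quartile of protein-coding genes (0.45). A member above its partner is therefore the usual outcome for this set. In some pairs, such as MRPL43 and TWNK, the 5′ ends overlap, and the read strand is not known. MRPL27 rose by 0.45 ± 0.06 while EME1, a subunit of a DNA endonuclease whose 5′ end lies 13 bases away, fell by 0.85 ± 0.07. MRPL47 rose by 0.69 ± 0.07 beside NDUFB5, a subunit of respiratory complex I, at −0.14 ± 0.07. In other pairs both rose: MRPL36 (1.49) and NDUFS6 (1.19), also a complex I subunit, and MRPS12 (1.57) and SARS2 (0.67), the mitochondrial seryl-tRNA synthetase. TWNK, the mitochondrial DNA helicase, rose by 1.63 ± 0.06, more than its partner MRPL43 (0.65 ± 0.07). The genes of these pairs were named after their values were seen.

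**Figure D5:**
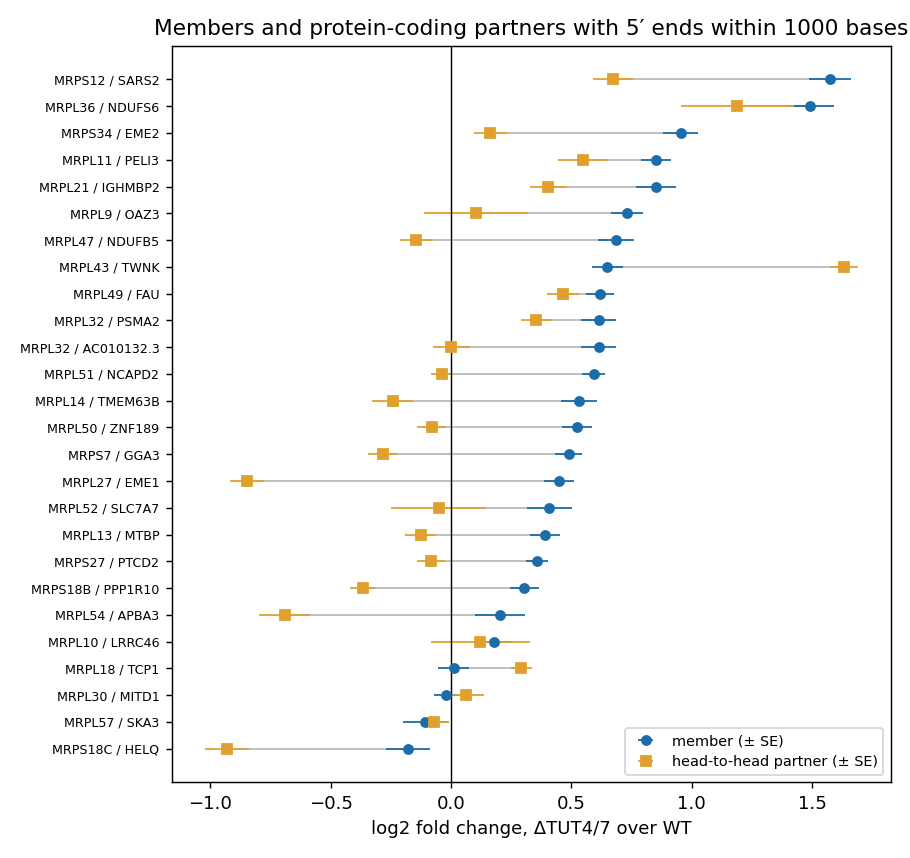
Log2 fold change, with bars of 1 standard error, of members (blue circles) and of their protein-coding head-to-head partners (orange squares), 1 pair per line. The circle lies to the right of the square in 22 of 26 pairs.

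One pair joins both subunits. MRPL46 (chr15:88459477-88467390, − strand) and MRPS11 (chr15:88467453-88480776, + strand) have 5′ ends 63 bases apart. MRPL46 read 21.99, 26.3 and 28.7 CPM in WT and 24.9, 26.3 and 23.4 in the other group, and MRPS11 read 44.3, 39.9 and 43.4 and then 43.4, 39.1 and 39.1. The groups overlapped for both, the log2 fold changes were −0.05 ± 0.09 and −0.06 ± 0.07, and their neighbours stood at −0.74.

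Promoter sequence was read from RefSeq (build GRCh38.p14), as 250 bases before to 50 after each start, for 69 of the 78 members. These starts lay within 100 bases of the count table's start for 50 of the 69 and up to 338188 bases from it (MRPS22), so a window need not be the promoter used in these cells. Of 4 motifs searched on both strands, AAGATGGCG, the core of the site of the transcription factor YY1, was in 13 of 69 members (18.8%), 3.51% of 11546 other protein-coding genes tested and 1.75% of all 35116 promoters. CCGGAAGT, an ETS-type motif as bound by GABPA, was in 11 members (15.9%), 7.94% and 4.14%. The NRF1 motif, GCGC and TGCGC with any base between them, was in 8 members (11.6%), 10.8% and 5.78%, and CACGTG, the E-box of MYC and other factors, in 7 members (10.1%), 9.62% and 7.26%. Large- and small-subunit genes carried the YY1 letters in 8 of 42 and 5 of 27 promoters. These shares are descriptions, and a match is not evidence of binding.

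In 10 of the 13 genes the YY1 letters lay on the gene's own strand 7 to 36 bases past the RefSeq start (the first base of the transcript is 1). The core holds the letters ATG, and whether these matches coincide with a start codon of the protein was not tested. The windows below show exact matches in members that rose and in members that were not called, with the motif in capitals and 10 bases on either side.
MRPL38: ggccggagggAAGATGGCGgcgccctggt (chr17:75904860-75904888, - strand)
MRPS30: atcgcgggcaAAGATGGCGgcggccaggt (chr5:44808950-44808978, + strand)
MRPS24: cgcttggcccAAGATGGCGgcctccgtgt (chr7:43869480-43869508, - strand)
MRPL50: gatctcatcgAAGATGGCGgcgcgatctg (chr9:101398577-101398605, - strand)
MRPL42: ggattgaaacAAGATGGCGggttcgtggt (chr12:93467512-93467540, + strand)
MRPL46: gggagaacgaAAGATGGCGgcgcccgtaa (chr15:88467362-88467390, - strand)
MRPL38 (0.96), MRPS30 (0.65), MRPS24 (0.60) and MRPL50 (0.52) rose, while MRPL42 (−0.03) and MRPL46 (−0.05) carry the same core and were not called, MRPL42 with the dependence on processing given above. The RefSeq starts of MRPL38 and MRPS24 lie 209 and 376 bases from those of the count table. Over all members with a RefSeq promoter, those with the YY1 letters had a median log2 fold change of 0.52 and those without of 0.47, with 11 of 13 and 42 of 56 higher. With and without the ETS letters the medians were 0.59 and 0.47, with and without the NRF1 letters 0.29 and 0.48, and with and without the E-box 0.62 and 0.47.

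The whole windows (250 bases before to 30 after the start, gene strand) are shown for the 2 members that rose the most and for MRPL46, with capitals for any of the 4 motifs found.
MRPL36: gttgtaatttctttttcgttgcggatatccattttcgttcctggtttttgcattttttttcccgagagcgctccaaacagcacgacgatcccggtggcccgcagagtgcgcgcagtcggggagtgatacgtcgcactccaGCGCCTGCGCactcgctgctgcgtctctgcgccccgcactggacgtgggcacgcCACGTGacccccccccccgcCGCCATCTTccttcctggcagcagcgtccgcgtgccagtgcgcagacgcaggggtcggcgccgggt
MRPS12: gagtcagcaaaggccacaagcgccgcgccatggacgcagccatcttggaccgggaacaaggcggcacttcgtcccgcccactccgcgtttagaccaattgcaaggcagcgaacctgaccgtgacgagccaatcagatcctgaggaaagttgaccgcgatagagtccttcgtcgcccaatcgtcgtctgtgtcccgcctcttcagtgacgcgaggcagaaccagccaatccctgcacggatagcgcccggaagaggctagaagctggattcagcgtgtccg
MRPL46: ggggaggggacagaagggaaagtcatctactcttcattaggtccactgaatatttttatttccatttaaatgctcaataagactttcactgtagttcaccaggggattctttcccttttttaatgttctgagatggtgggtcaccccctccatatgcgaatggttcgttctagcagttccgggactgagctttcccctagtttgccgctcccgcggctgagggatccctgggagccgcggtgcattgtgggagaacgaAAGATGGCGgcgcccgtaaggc
The MRPL36 window (chr5:1799808-1800087, − strand) holds an NRF1 motif, an E-box and the YY1 letters on the other strand, which begin 110, 56 and 36 bases before the start. RefSeq places this start 1529 bases from that of the count table. The MRPS12 window (chr19:38930694-38930973, + strand) holds none of the 4 exact motifs, although MRPS12 rose the most. Only exact letters were searched, so a site that differs by a letter is not counted or marked. The MRPL46 window (chr15:88467359-88467638, − strand) holds the YY1 letters from base 9.

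No setting for read strand is given in the sources used here, so reads of overlapping genes may be divided between them. Of 50 members that overlap another annotated gene, 40 rose and 2 fell (median log2 fold change 0.48), and of the 28 that overlap none 22 rose and 1 fell (median 0.45). In all, 54 of the 62 rising members kept their call under each of the 16 tested alternatives, and MRPL10, MRPL20, MRPL22, MRPL23, MRPL45, MRPL55, MRPS33 and MRPS36 lost it under at least 1.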

How the data were processed

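Total RNA of 3 WT and 3 ΔTUT4/7 libraries was aligned to hg38 with STAR 2.7.3a and quantified in Partek Flow 10.0.22 by its expectation-maximisation model, per the labels and the study's methods. The authors deposited these values as estimated counts per gene, which need not be whole and divide reads of overlapping or similar genes by a model. They were rounded here. Genes with a largest count above 12 over the 6 libraries were kept, scaled by TMM and tested on the whole table with edgeR 4.0.16 (R 4.3.3; robust quasi-likelihood F test, group as the only term, Benjamini-Hochberg adjustment over all genes tested). An FDR under 0.05 was called, and SE of a log2 fold change was taken from the F statistic. Depth was 18757228 to 33148937 counts per library. Printed gene ends have 1 base taken off the table's stop. Length and GC content are those of the canonical GENCODE 44 transcript, on the same build. A second deposited table, the authors' own comparison (p-values, FDR, ratios, fold changes and group means), was not used. Steps were tested on simulated data.

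The members and gene lists were chosen with earlier results of these data known. Named genes are, per subunit, the 5 largest rises and the called falls with a mean count of 100 or more, every 2-fold change, the 3 highest and 3 lowest levels per kilobase, the members whose place differs from their symbol, the mitoribosomal proteins named otherwise, the 2 smallest p of each other list, and TUT4 and TUT7; the printed promoters and other genes were chosen after their values were seen. The alternatives were library size, RLE and upper-quartile scaling, DESeq2 1.42.0, limma-voom and limma 3.58.1 on log2(CPM + 1), other count filters, a replicate block, a GC and length offset, each library left out, neighbours subtracted and subunits by structure. One marker of other cell types is not reported here.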

Additional observations from a re-analysis of the deposited data

How the results depend on the processing

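Of the results on the subunits, those with DESeq2, limma-voom, limma on log2(CPM + 1), RLE scaling and no count filter kept their direction and size. With library size alone 5 large-subunit and 4 small-subunit genes fell and the median log2 fold changes were 0.33 and 0.39; with upper-quartile scaling 4 and 4 fell and the medians were 0.35 and 0.41. Both scalings moved the median of all genes, by −0.11 and −0.10, and 10 of the 13 uncalled members passed the FDR under at least 1 alternative. With a mean count of 50 or more, 3 small-subunit genes fell and the medians were 0.38 and 0.44. With the GC and length offset the small-subunit median was 0.45. With subunits by structure it was 0.44, the large minus small median was 0.026 in place of −0.06, and the log2 change of the large-to-small ratio was 0.029 in place of −0.04; per kilobase that change was −0.015. With neighbours subtracted the small-subunit median was 0.42 and the difference 0.0088. Without each replicate in turn, 1 to 3 small-subunit genes fell, their median was 0.47 to 0.55 and the large minus small median −0.11 to −0.034. Among the named genes, AURKAIP1 reversed with the GC and length offset (−0.15, edgeR FDR = 0.0316), and MRPS31 (0.10) and MRPS33 (−0.27) with neighbours subtracted. Among all members, over the 16 tested alternatives, the sign also turned for MRPL42 (−0.14 to 0.21), MRPL18 (−0.10 to 0.08), MRPL30 (−0.14 to 0.07), MRPL46 (−0.17 to 0.03) and MRPL23 (−0.0089 to 0.25). The cause of these changes was not tested. Replicate numbers did not pair the libraries: deviations of same-numbered libraries correlated at 0.07, 0.01 and −0.04 across genes, and not every library correlated best with its own number. With the replicate block 38 large-subunit genes rose and 2 fell, 24 small-subunit genes rose and 1 fell, the medians were 0.46 and 0.51, 6 members changed 2-fold, and 13678 of all genes were called in place of 13813. With 3 libraries a group no outlier check was made. All 78 members had enough counts to be tested, the least with a mean of 254.5 (MRPS36).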
